A study of Homo sapiens with 4 samples.

Results

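Serine synthesis and the mitochondrial and cytosolic folate enzymes that pass on its one-carbon unit were examined in 786-O, a clear cell renal cell carcinoma (ccRCC) line without functional VHL. The 9 member genes were PHGDH, PSAT1 and PSPH of serine synthesis, SHMT2, MTHFD2, MTHFD1L and ALDH1L2 of mitochondria, and SHMT1 and MTHFD1 of the cytosol. They were taken by symbol, as enzymes of this pathway, and all 9 were among the 12912 genes of the count table and among the 12335 genes tested. RNA-seq libraries of 786-O-Ctrl, labelled as wild type (VHL-null), were compared with libraries of 786-O-VHL, labelled as VHL restoration, with 2 libraries in each group. In 786-O-VHL, HA-tagged VHL is expressed from a retrovirus with a puromycin marker, and the labels name 786-OTR, so both groups also carry a triple reporter (GFP, luciferase and thymidine kinase). Both were grown in RPMI1640 with serum, no library was treated further, and each group is 1 subline. Nothing in the labels says that replicates came from separate cultures, so p-values measure the spread between these libraries, which may be technical.

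In this pathway the phosphoglycerate of glycolysis is turned into serine by PHGDH, PSAT1 and PSPH in turn. Serine hydroxymethyltransferase then splits serine into glycine and a carbon unit bound to folate, in mitochondria by SHMT2 and in the cytosol by SHMT1. In mitochondria MTHFD2 oxidizes that unit, MTHFD1L releases it as formate, and ALDH1L2 burns it to CO2 with the formation of NADPH. Cytosolic MTHFD1 takes up formate and interconverts the folates that feed purine, thymidylate and methionine synthesis. ATF4, a transcription factor of amino acid and endoplasmic reticulum stress, is known to drive several of these genes.

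The 786-O-Ctrl libraries, told apart by depth, held 22141263 counts (deeper) and 15714166 counts (shallower). For 786-O-VHL the totals were 2807779 counts (replicate 1) and 16114120 counts (replicate 2). Levels are given as CPM, a gene's counts scaled to the library total with TMM, edgeR's correction for library composition, and fold changes as log2 of 786-O-VHL over 786-O-Ctrl. A gene was called where the FDR, the Benjamini-Hochberg adjusted p of edgeR's quasi-likelihood test over all 12335 genes, was under 0.05. Scaling by library totals alone moved the median of all genes up by 0.13 on the log2 scale. VHL itself had 903 and 661 counts in 786-O-Ctrl against 525 and 2748 in 786-O-VHL (log2 fold change 1.96, FDR = 2.86e-19). Of the renal epithelial markers PAX8, PAX2, KRT8, KRT18, VIM and CDH2, 6 of 6 were detected. In 786-O-VHL 4 were lower (VIM -1.21, PAX8 -0.90, KRT8 -0.56 and PAX2 -0.40 as log2 fold changes), where 31.9% of all genes tested were called lower. KRT18 (-0.12) and CDH2 (-0.09) were not called. Of 8 markers of blood, endothelial, liver and muscle cells only PECAM1 was in the table, with between 1 and 9 counts in a library.

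Restoration of VHL went with higher mRNA of PSAT1, PSPH and part of the mitochondrial branch, and with lower mRNA of both cytosolic enzymes. Of the 9 members, 5 were higher (PHGDH, PSAT1, PSPH, MTHFD2 and ALDH1L2), 2 were lower (SHMT1 and MTHFD1), and SHMT2 and MTHFD1L were not called. Over all genes tested, 32.6% were called higher and 31.9% lower, so calls in either direction were frequent in this comparison. The log2 fold changes of PSAT1 (0.41), PSPH (0.36) and MTHFD1 (-0.38) lay within the middle 50% of all genes tested, from -0.40 to 0.46. Those of MTHFD2 (0.48), ALDH1L2 (1.57) and SHMT1 (-0.73) lay outside it. PHGDH passed the filter on low counts only through the 786-O-VHL libraries and so had to differ. Of the other 8 members, 4 were higher, 2 were lower and 2 were not called, and their median log2 fold change was 0.21, against 0.02 over all genes tested. The libraries of the groups did not overlap for any of these 8, against 80% of all genes tested. None of the 8 passed a change of over 4-fold at an FDR under 0.01, which 4.46% of all genes tested passed. In bulk libraries, fewer cells with an mRNA and less of it per cell cannot be told apart.

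**Figure D1:**
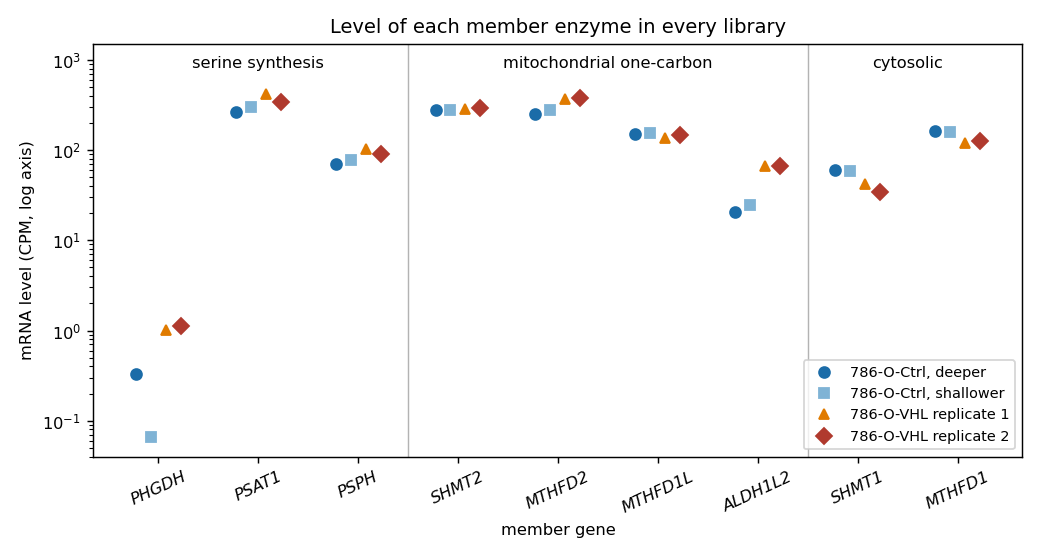
mRNA level of the 9 member genes in CPM on a log axis, with 1 point for each of the 4 libraries. PHGDH lies near or below 1 CPM in every library, ALDH1L2 rises from 20.5 and 24.4 to 66.1 and 66.3 CPM, and the 786-O-VHL points of SHMT1 and MTHFD1 lie below those of 786-O-Ctrl.

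PHGDH (ENSG00000092621.12), the first enzyme of serine synthesis, is on the plus strand of chromosome 1 (GRCh37), between 120191034 and 120286841. It was almost silent in both sublines, with 7 counts (deeper library) and 1 count (shallower) for 786-O-Ctrl, against 3 (replicate 1) and 19 (replicate 2) for 786-O-VHL. These counts correspond to 0.332 and 0.0665 CPM in 786-O-Ctrl and to 1.02 and 1.13 CPM in 786-O-VHL. Both 786-O-VHL libraries were above both 786-O-Ctrl libraries, although replicate 1 holds only as many counts as a count of 0 would allow (3 counts, or 1.02 CPM in that library). Pooled over libraries, 22 counts in 786-O-VHL against 8 in 786-O-Ctrl gave a ratio of the rates of 5.02, with an exact 95% interval from 2.15 to 13.0 that covers counting error only. The fitted log2 fold change was 2.29 (standard error 0.657, edgeR FDR = 0.00343). Since PHGDH was tested only because both 786-O-VHL libraries, and neither 786-O-Ctrl library, passed the filter, these values describe the libraries and are no independent evidence of the direction. The call was lost with DESeq2 (log2 fold change 2.37, adjusted p = 0.0788) and without the shallower 786-O-Ctrl library (1.70, edgeR FDR = 0.0678). Without the deeper 786-O-Ctrl library the log2 fold change was 3.85 (edgeR FDR = 0.00498), and PHGDH was not tested without 786-O-VHL replicate 2, after thinning to the shallowest library, or under a filter of 10 counts in each library.

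PSAT1 (ENSG00000135069.14), the transaminase of the second step, lies on chromosome 9 from 80912041 to 80945009 on the plus strand. Its counts were 5501 and 4559 in 786-O-Ctrl against 1241 and 5765 in 786-O-VHL, or 261 and 303 CPM against 421 and 342 CPM. Both 786-O-VHL libraries lay above both 786-O-Ctrl libraries, by 0.41 on the log2 scale (standard error 0.0784, edgeR FDR = 4.22e-05). The size depended on the 786-O-VHL library used, at 0.28 without replicate 1 and 0.58 without replicate 2. Per kilobase of exon, PSAT1 was among the most abundant members and PHGDH the least abundant in both groups (levels given with the order of the members).

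To show the start sites of the least and one of the most abundant members, the 100 bases before the RefSeq start (GRCh38.p14, plus strand) are printed with CpG dinucleotides in capitals. The PHGDH window (chr1:119711834-119711933) held 4 CpG at 54% GC, and the PSAT1 window (chr9:78297025-78297124) held 13 CpG at 71% GC. Over 300 bases, from 250 before to 50 after the start, PHGDH held 15 CpG at 52.7% GC and PSAT1 37 at 66%. The medians over 35116 windows of that length were 14 CpG and 58.7% GC, so PHGDH was near the median in CpG. DNA methylation was not measured in these libraries.
PHGDH: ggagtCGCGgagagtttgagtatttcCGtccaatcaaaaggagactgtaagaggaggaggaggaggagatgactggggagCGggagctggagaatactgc
PSAT1: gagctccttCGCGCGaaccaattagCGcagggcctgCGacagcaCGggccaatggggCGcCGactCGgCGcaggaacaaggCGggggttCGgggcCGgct

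PSPH (ENSG00000146733.14), the phosphatase that releases serine, lies on chromosome 7 from 56078744 to 56119297 on the minus strand. Its counts were 1464 and 1157 in 786-O-Ctrl against 300 and 1522 in 786-O-VHL, or 69.5 and 76.9 CPM against 102 and 90.4 CPM. The groups did not overlap, and PSPH was higher in 786-O-VHL by 0.36 on the log2 scale (standard error 0.075, edgeR FDR = 1.38e-04). PSAT1 and PSPH thus moved in the same direction by similar amounts, and in both 786-O-VHL replicate 1 was the highest library. The annotation lists 4 pseudogenes named after PSAT1 and 1 after PSPH, and 0 of them are in the count table, so counts shared with such copies cannot be told apart.

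Of the mitochondrial enzymes, ALDH1L2 showed the largest change. ALDH1L2 (ENSG00000136010.14), which oxidizes formyl-folate to CO2 with the formation of NADPH, lies on chromosome 12 from 105413562 to 105501421 on the minus strand. It had 432 and 367 counts in 786-O-Ctrl against 195 and 1116 in 786-O-VHL, or 20.5 and 24.4 CPM against 66.1 and 66.3 CPM. Both 786-O-VHL libraries were thus close to each other and 2.97-fold above 786-O-Ctrl in the fit (log2 fold change 1.57, standard error 0.0959, edgeR FDR = 3.01e-14). The log2 fold change stayed between 1.44 and 1.71 under the 11 alternatives.

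MTHFD2 (ENSG00000065911.12), the mitochondrial dehydrogenase and cyclohydrolase, lies on chromosome 2 from 74413299 to 74444692 on the plus strand. Its counts were 5292 and 4192 in 786-O-Ctrl against 1072 and 6315 in 786-O-VHL, or 251 and 279 CPM against 364 and 375 CPM. Each 786-O-VHL library lay above each 786-O-Ctrl library, and the fitted difference was 0.48 on the log2 scale (standard error 0.0646, edgeR FDR = 2.05e-07). This is mRNA alone. In its proteome and ubiquitome data the paper counts MTHFD2 protein as lower, and as ubiquitinated, after VHL was restored. The mRNA therefore does not give the direction of the protein. The annotation lists 7 pseudogenes of MTHFD2, of which 0 are in the count table.

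SHMT2 (ENSG00000182199.11), the mitochondrial hydroxymethyltransferase, lies on chromosome 12 from 57623356 to 57628718 on the plus strand. It had 276 and 278 CPM in 786-O-Ctrl against 286 and 289 CPM in 786-O-VHL, from 5809, 4178, 844 and 4872 counts. The libraries did not overlap, but the log2 fold change of 0.06 (95% interval -0.07 to 0.18) was not called (edgeR FDR = 0.42). With library totals alone it was 0.19 and called (edgeR FDR = 0.00717), where all genes moved up by 0.13. MTHFD1L (ENSG00000120254.15), which releases formate in mitochondria, lies on chromosome 6 from 151186815 to 151423023 on the plus strand. Its levels were 149 and 155 CPM in 786-O-Ctrl against 137 and 146 CPM in 786-O-VHL, from 3137, 2325, 404 and 2461 counts. The log2 fold change of -0.08 (95% interval -0.22 to 0.05) was not called (edgeR FDR = 0.269) and its sign changed with library totals alone (0.050) and after thinning (0.036).

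Both cytosolic members were lower in 786-O-VHL. SHMT1 (ENSG00000176974.20), the cytosolic hydroxymethyltransferase, lies on chromosome 17 from 18231174 to 18266877 on the minus strand. It had 1277 and 878 counts in 786-O-Ctrl against 123 and 576 in 786-O-VHL, or 60.6 and 58.4 CPM against 41.7 and 34.2 CPM. Both 786-O-VHL libraries were below both 786-O-Ctrl libraries, and SHMT1 fell by 0.73 on the log2 scale (standard error 0.09, edgeR FDR = 5.06e-08). MTHFD1 (ENSG00000100714.17), the cytosolic enzyme with 3 activities, lies on chromosome 14 from 64854749 to 64930175 on the plus strand. Its counts were 3416 and 2388 in 786-O-Ctrl against 350 and 2114 in 786-O-VHL, or 162 and 159 CPM against 119 and 126 CPM. It fell by 0.38 on the log2 scale (standard error 0.0655, edgeR FDR = 1.15e-05). The annotation lists 1 pseudogene of SHMT1 and 1 of MTHFD1, and 0 of them are in the count table. SHMT2, MTHFD2, ALDH1L2, SHMT1 and MTHFD1 share exonic bases with genes on the opposite strand, and whether counting used strand is not stated.

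**Figure D2:**
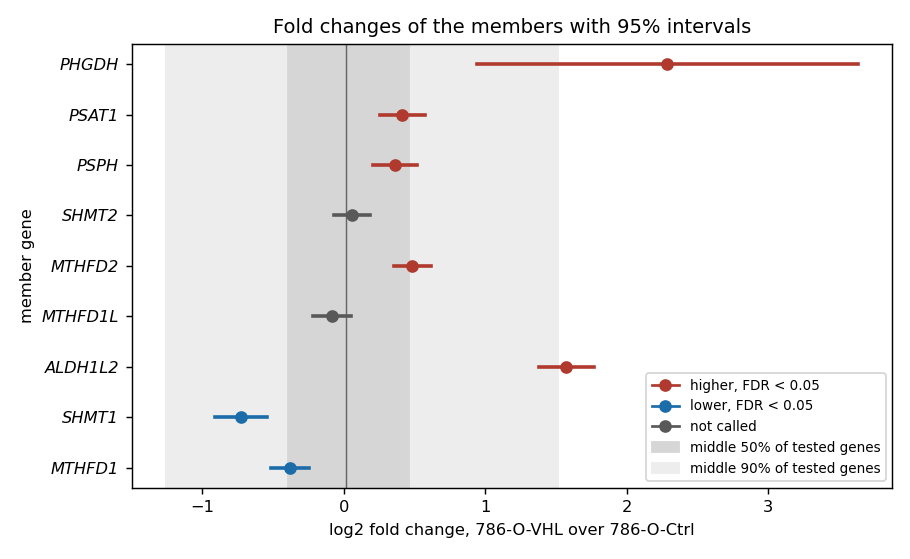
Log2 fold change of each member, 786-O-VHL over 786-O-Ctrl, with its 95% interval from the edgeR fit. The grey bands hold the middle 50% and 90% of all genes tested, from -0.40 to 0.46 and from -1.26 to 1.52. ALDH1L2 at 1.57 and PHGDH at 2.29 lie beyond the wider band, and the interval of PHGDH, from 0.94 to 3.63, is the widest. PHGDH passed the filter on low counts only through the 786-O-VHL libraries, so its place and interval are no independent evidence of its direction.

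Because the mitochondrial and cytosolic enzymes catalyse matching reactions, their ratio was taken within each library, where it does not depend on scaling. The ratio of SHMT2 to SHMT1 per kilobase of annotated exon was 6.95 and 7.27 in 786-O-Ctrl against 10.5 and 12.9 in 786-O-VHL. The ratio of MTHFD2 to MTHFD1 was 2.35 and 2.66 in 786-O-Ctrl against 4.65 and 4.53 in 786-O-VHL. For MTHFD1L over MTHFD1 it was 3.26 and 3.46 in 786-O-Ctrl against 4.10 and 4.13 in 786-O-VHL. The size of these ratios depends on the length used. Per kilobase of canonical transcript, SHMT2 over SHMT1 was 5.33 and 5.57 in 786-O-Ctrl against 8.04 and 9.91 in 786-O-VHL, and MTHFD2 over MTHFD1 was 1.11 and 1.26 against 2.19 and 2.14. MTHFD1L over MTHFD1 was then 0.839 and 0.890 against 1.05 and 1.06, so which of these mRNAs is the more abundant is not settled. The difference between groups does not depend on length. All 3 ratios were higher in both 786-O-VHL libraries, by 0.71, 0.88 and 0.29 on the log2 scale. They restate the fold changes of the members given above and are no further evidence. MTHFD1 is the denominator for both MTHFD2 and MTHFD1L, so those ratios are not independent. SHMT2 (log2 fold change 0.06) and MTHFD1L (-0.08) were not called, so their ratios rose with the lower levels of SHMT1 and MTHFD1. With 2 libraries against 2, the two-sided exact permutation test gave p = 0.333 for each pair (0.333 after adjustment over the 3 pairs), which is the smallest p this design allows. The ratio of ALDH1L2 to its cytosolic counterpart ALDH1L1, which is not in the table used here, was not computed.

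**Figure D3:**
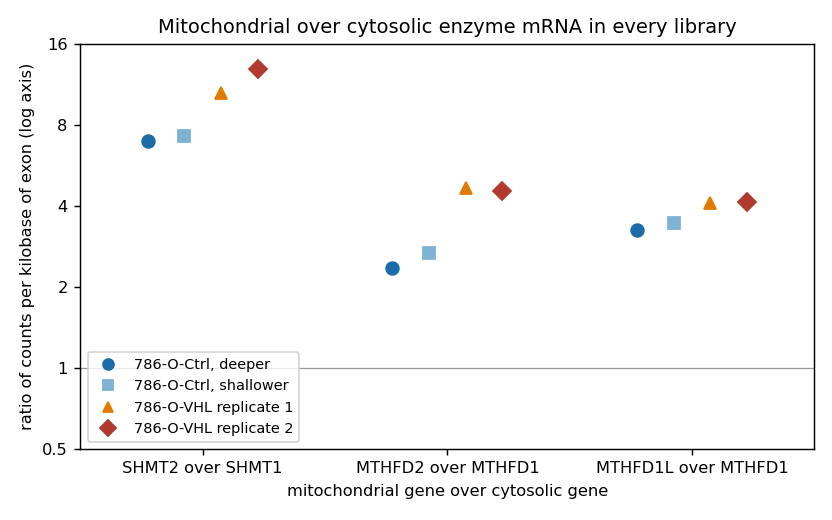
Ratio of a mitochondrial enzyme to its cytosolic counterpart in counts per kilobase of annotated exon, a length on which the height of each pair but not the gap between groups depends, on a log axis, with 1 point for each of the 4 libraries. For each of the 3 pairs both 786-O-VHL points lie above both 786-O-Ctrl points, with the widest gap between replicates for SHMT2 over SHMT1 in 786-O-VHL (10.5 and 12.9). The pairs of MTHFD2 and MTHFD1L share the denominator MTHFD1 and are not independent.

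Ordered by level per kilobase of annotated exon in 786-O-Ctrl, PSAT1 was first at 128 ± 13.4 CPM per kilobase (SD, n = 2), followed by SHMT2 (60.3 ± 0.279), MTHFD1L (31.0 ± 0.802), PSPH (26.5 ± 1.89), MTHFD2 (23.2 ± 1.69), MTHFD1 (9.24 ± 0.143), SHMT1 (8.48 ± 0.231), ALDH1L2 (2.37 ± 0.289) and PHGDH (0.0217 ± 0.0205). No neighbours in this order overlapped between libraries. In 786-O-VHL, PSPH (34.8 ± 2.91) and MTHFD2 (32.3 ± 0.702) came before MTHFD1L (29.0 ± 1.32), and ALDH1L2 (6.97 ± 0.00919) before SHMT1 (5.41 ± 0.758). There PSPH and MTHFD2 overlapped, as did MTHFD1 (7.04 ± 0.277) and ALDH1L2. The order depends on the length used, since the annotated exons of MTHFD1 add up to 17357 bases and its canonical transcript to 3154. Per kilobase of canonical transcript, a length chosen after the values were seen, SHMT2 (128 ± 0.594) and PSAT1 overlapped at the top in 786-O-Ctrl, MTHFD1 (50.9 ± 0.787) lay above MTHFD1L, and PHGDH stayed last in both groups.

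The start sites of members that rose, fell or were not called were searched for short motifs in windows from 250 bases before to 50 after the RefSeq start (GRCh38.p14), on both strands. Windows for 6 of the 9 members were found, 4 for MTHFD1L, which has several starts, and 1 for each of the other 5, and PSPH, SHMT2 and ALDH1L2 were not searched. The core of the element bound by C/EBP and ATF factors, TGATGNAA, was in 1 of the 6 (MTHFD1L), and in 3.62% of 35116 windows of the same length. Members are counted over all their windows and these shares are per window, so MTHFD1L had more sequence searched. The E-box CACGTG was in MTHFD1L and MTHFD1 and in 7.26% of windows, and the hypoxia response element core ACGTG, which lies within CACGTG, was in those 2 and in MTHFD2 and in 21.4% of windows. The antioxidant response element core TGACNNNGC was in MTHFD2 and in 13.3% of windows, and the E2F site TTTGGCGC in 0 of the 6 and in 0.652% of windows. One stretch around a motif is printed for each of these 3 members, on the plus strand and with the motif in capitals. The stretches lie at chr6:150866346-150866375 for MTHFD1L (not called), chr14:64388327-64388352 for MTHFD1 (lower) and chr2:74198366-74198392 for MTHFD2 (higher). The first motif base is 129 bases before a start in MTHFD1L, 15 before it in MTHFD1 and 238 before it in MTHFD2, where ACGTG reads on the opposite strand.
MTHFD1L: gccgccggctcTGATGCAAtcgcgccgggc
MTHFD1: cagtccctaagCACGTGggttgggtt
MTHFD2: gcctatcatggCACGTtgccgaggctt

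The remaining genes of folate, methionine, glycine and purine metabolism moved in both directions. Of 39 listed genes, 35 were in the table and 33 were tested, of which 8 were higher and 14 lower in 786-O-VHL (all genes: 32.6% and 31.9%). With library totals alone, 12 were higher and 12 lower. Their median log2 fold change was -0.11, against 0.02 for all genes tested, and 1 of them (TYMS) passed the 4-fold threshold.

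Among the other folate enzymes, 3 of 6 were lower (all genes: 31.9%) and 3 were not called. TYMS, which makes thymidylate, had 82.8 and 82.9 CPM in 786-O-Ctrl against 20.7 and 20.1 CPM in 786-O-VHL (log2 fold change -2.04, standard error 0.0894, edgeR FDR = 2.1e-17). It shares 967 exonic bases with ENOSF1 on the opposite strand, which matters if counting ignored strand. GGH, a lysosomal hydrolase of folate polyglutamates, was lower by a log2 fold change of -1.22. FPGS, which adds the glutamate tail that keeps folates in the cell, had 3430 and 2265 counts in 786-O-Ctrl against 280 and 1695 in 786-O-VHL (log2 fold change -0.66, standard error 0.0688, edgeR FDR = 1.92e-09).

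TYMS is known for transcription around S phase. The 7 replication genes MCM2 to MCM7 and PCNA were all lower in 786-O-VHL (all genes: 31.9%). Their median log2 fold change was -2.17, against 0.02 for all genes tested. MCM4, MCM3 and MCM2, subunits of the replicative helicase, had log2 fold changes of -2.93, -2.22 and -2.22. The summed level of the 7 genes was 1769 to 1868 CPM in 786-O-Ctrl and 463 to 481 CPM in 786-O-VHL, and 0 of them were at 0. Their part in the lower levels of TYMS, SHMT1 and MTHFD1 was not tested.

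Among the folate and serine carriers, 1 of 7 tested was higher and 5 were lower (all genes: 32.6% and 31.9%). SLC19A1, the reduced folate carrier of the plasma membrane, had 94.7 and 94.0 CPM in 786-O-Ctrl against 36.6 and 40.4 CPM in 786-O-VHL (log2 fold change -1.25, standard error 0.0778, edgeR FDR = 4.48e-14). It shares 1563 exonic bases with COL18A1 on the opposite strand, which matters if counting ignored strand. SFXN2 and SFXN3, sideroflexins of the mitochondrial inner membrane, had log2 fold changes of -1.35 and -0.77. FOLR1, a folate receptor, had 12.1 and 11.2 CPM against 31.9 and 29.0 CPM (1.35, standard error 0.127, edgeR FDR = 2.72e-10). SLC25A32, the mitochondrial folate carrier, had between 1 and 9 counts in a library and was not tested, and it shares 2547 exonic bases with an overlapping gene on the same strand.

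Of 9 genes of the methionine cycle and transsulfuration, 5 were higher and 3 lower (all genes: 32.6% and 31.9%). Both transsulfuration enzymes, which carry homocysteine and serine to cysteine, were higher. CTH had 17.7 and 20.7 CPM in 786-O-Ctrl against 71.9 and 65.6 CPM in 786-O-VHL (log2 fold change 1.82, standard error 0.0987, edgeR FDR = 2.27e-15). CBS had 11.3 and 15.7 CPM against 30.2 and 33.4 CPM (1.30, standard error 0.135, edgeR FDR = 2.31e-09), but its counts are uncertain, since a near-identical annotated copy can split its reads. AHCYL2, a relative of the homocysteine-releasing enzyme AHCY, had a log2 fold change of 0.80. MTR, the methionine synthase that takes methyl groups from folate, and AHCY had log2 fold changes of -0.65 and -0.50, and AHCY overlaps another gene on the same strand.

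For glycine cleavage and serine breakdown, 2 of 5 tested genes were higher and 0 were lower (all genes: 32.6% and 31.9%). GLDC, the glycine decarboxylase, had 39 and 16 counts in 786-O-Ctrl against 14 and 76 in 786-O-VHL (log2 fold change 1.59, standard error 0.327, edgeR FDR = 1.11e-04). SDSL, a relative of serine dehydratase, had 12.3 and 10.9 CPM against 27.1 and 32.7 CPM (1.42, standard error 0.128, edgeR FDR = 1.23e-10). Of 6 enzymes of de novo purine synthesis, which consumes formyl-folate, 3 were lower and 0 were higher (all genes: 31.9% and 32.6%). PAICS had 456 and 465 CPM in 786-O-Ctrl against 222 and 240 CPM in 786-O-VHL (-0.98, standard error 0.064, edgeR FDR = 1.34e-13), and PFAS had a log2 fold change of -0.77. PPAT, the first enzyme of the route, was called at -0.18 (edgeR FDR = 0.0391), a call lost with library totals alone (-0.05), with DESeq2 (-0.20), after thinning (-0.03), and without either 786-O-Ctrl library (-0.16 without the deeper and -0.21 without the shallower) or 786-O-VHL replicate 2 (-0.18).

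**Figure D4:**
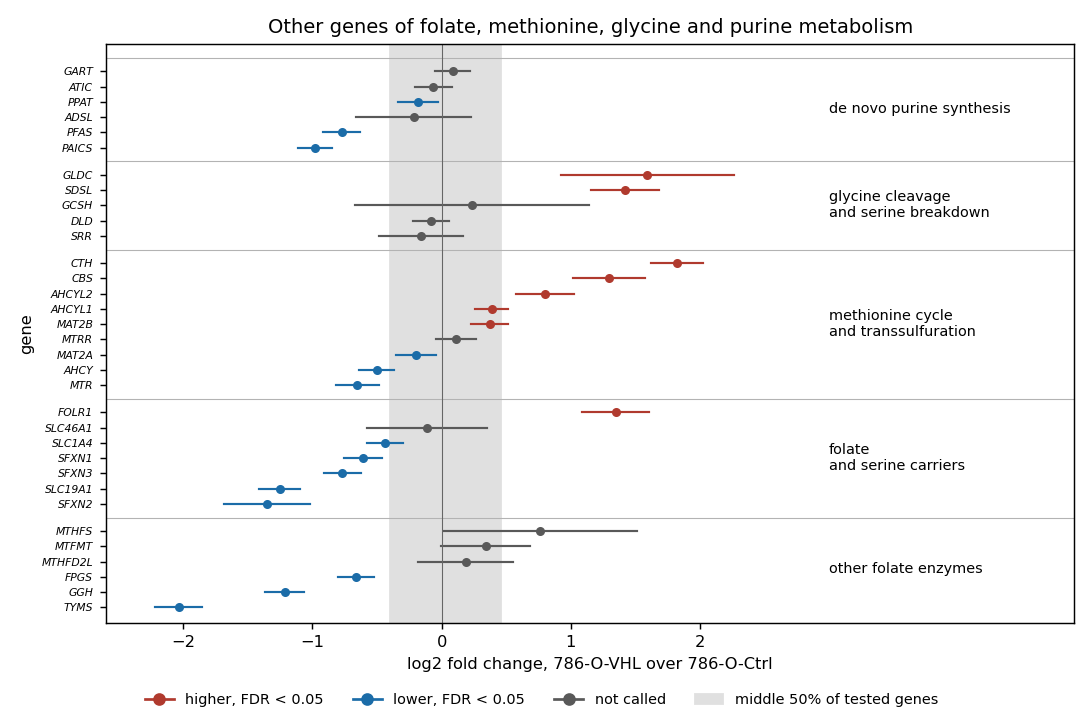
Log2 fold changes with 95% intervals from the edgeR fit for the 33 other pathway genes tested, grouped by list, with the middle 50% of all genes tested (-0.40 to 0.46) in grey. CTH at 1.82 and GLDC at 1.59 lie farthest to the right, and TYMS at -2.04 and SFXN2 at -1.35 farthest to the left.

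ATF4 mRNA had 483 and 500 CPM in 786-O-Ctrl against 499 and 549 CPM in 786-O-VHL, and its log2 fold change of 0.10 (95% interval -0.03 to 0.23) was not called (edgeR FDR = 0.161). It was called without 786-O-VHL replicate 1 (0.16, edgeR FDR = 0.00195) and with library totals alone (0.23, edgeR FDR = 0.00147). Of 20 tested genes in a list of stress response and amino acid genes outside the pathway, ATF4 included, 15 were higher and 3 were lower, with a median log2 fold change of 0.72 (all genes: 32.6% higher, 31.9% lower and a median of 0.02). NUPR1, GDF15 and DDIT3, stress-induced genes, had log2 fold changes of 3.40, 2.72 and 2.40. NUPR1 had 30.5 and 35.0 CPM in 786-O-Ctrl against 322 and 360 CPM in 786-O-VHL. ALDH18A1, an enzyme of proline synthesis, and ATF5, a relative of ATF4, had log2 fold changes of -0.75 and -0.50. SLC7A5, a carrier of large amino acids, was called at -0.15 (edgeR FDR = 0.0397), a call lost with library totals alone (-0.01), after thinning (-0.11), and without the deeper 786-O-Ctrl library (-0.18), the shallower one (-0.13) or 786-O-VHL replicate 1 (-0.08). NUPR1, DDIT3 and ATF5 overlap other genes on the same strand, so their counts are uncertain. The part of these genes' change in that of the members was not tested.

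The genes nearest in pattern to PHGDH, the member with the largest fold change, were ZNF136, AP4S1 and AMDHD1. Nearness was the Euclidean distance between log2(CPM + 0.5) values centred over the 4 libraries, at 0.0682, 0.0949 and 0.128. AMDHD1, the farthest of these 3, had 17 and 6 counts in 786-O-Ctrl against 6 and 32 in 786-O-VHL, and its log2 fold change of 1.59 (edgeR FDR = 0.00375) was not called with DESeq2 (adjusted p = 0.0679), without the shallower 786-O-Ctrl library (1.24, edgeR FDR = 0.0786) or without 786-O-VHL replicate 2 (1.67, edgeR FDR = 0.132). ZNF136 and AP4S1 had log2 fold changes of 1.24 and 1.27, and AP4S1 was not called after thinning (0.61, edgeR FDR = 0.117). The added 0.5 is large beside the PHGDH levels of 0.0665 to 1.13 CPM. It shrinks the contrast of PHGDH, so genes with smaller fold changes come out near it. With so few counts for PHGDH, a small distance says little beyond the order of the libraries.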

How the data were processed

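RNA of the 2 sublines was sequenced as Illumina libraries. Reads were aligned to hg19, and the authors deposited raw counts per gene, 1 whole number per gene and library, without normalization. The submitters' processing notes name CASAVA and STAR. The sources used here do not give the counting tool, the annotation, or whether strand was used. The same replicate number stands on both 786-O-Ctrl columns, which served as 2 libraries of the group and were named by depth.

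Of 12912 genes, filterByExpr (minimum count 10) kept 12335. Counts were scaled by TMM and tested with edgeR 4.0.16 (R 4.3.3) with group as the only term, and Benjamini-Hochberg adjustment ran over all genes tested. Residual degrees of freedom were 2, with 25.5 prior, and 95% intervals use their sum. Each symbol repeated in the table was represented by the identifier with the most counts. Gene positions are from a GRCh37 annotation, which holds 12749 of the identifiers. Replicates differed by more than sampling noise (chi-square per degree of freedom 2.26 over 12117 genes and 2.82 over 11802), and 3 counts correspond to 0.142 to 1.02 CPM.

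The genes named were the members, VHL, ATF4, up to 3 per list and direction with the largest fold change among called genes whose groups did not overlap, and the 3 genes nearest to the member with the largest fold change. The members and lists were chosen with earlier results of these data known, and some genes of folate metabolism are not reported here. Alternatives were RLE size factors, library totals alone, DESeq2 1.42.0, limma-voom (limma 3.58.1), no filter, at least 10 counts in every library, thinning to the shallowest library and each library left out in turn. On simulated counts of this comparison (12183 genes, 200 changed), edgeR recovered 199 with 12 false calls. The genes changed there lay above the level of PHGDH, and by design changed more than PSAT1, PSPH, MTHFD2, SHMT1 and MTHFD1 did. A far smaller share of genes changed than was called in the data. The recovery therefore does not cover calls of small changes or of genes near the floor.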

Additional observations from a re-analysis of the deposited data

How the results depend on the processing

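At over 4-fold and an FDR under 0.01 in place of 0.05, 1 member, PHGDH, was higher and 0 were lower. Its direction was fixed by the filter on low counts, which it passed only through the 786-O-VHL libraries. Of all genes tested, 4.46% passed this threshold. Of the other pathway genes 0 were higher and 1 lower. When libraries were left out one at a time, the members called ranged from 4 to 5 higher and stayed at 2 lower, and the other pathway genes from 8 to 10 higher and 12 to 15 lower. The ratios changed by 0.56 to 0.86 (SHMT2 over SHMT1), 0.79 to 0.97 (MTHFD2 over MTHFD1) and 0.25 to 0.34 (MTHFD1L over MTHFD1) on the log2 scale in those fits. MTHFD1L changed sign with library totals alone (0.050, edgeR FDR = 0.511) and after thinning (0.036, edgeR FDR = 0.772), and it was not called in either. PSAT1, PSPH, MTHFD2, ALDH1L2, SHMT1 and MTHFD1 kept their direction and their call under all 11 alternative fits. With DESeq2 the call of PSAT1 was near the threshold (adjusted p = 0.042), as was that of PSPH after thinning (edgeR FDR = 0.0479). In the 4 fits that leave out a library, 1 group holds a single library, which is assumed to vary like the other group, so those fits say little of the spread. No paired analysis was possible because both 786-O-Ctrl count columns carry the same replicate number. The depth of 786-O-VHL replicate 1 (2807779 counts) limits genes near 1 CPM, which touches PHGDH.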
